A study of Mus musculus with 7 samples.

Results

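The 35 genes described here act in mitosis and on the spindle, and were taken by name from a table of 14820 genes. Their RNA was measured in 7 whole skin papillomas of mice, 3 that expressed the cell cycle inhibitor p16 in keratinocytes (p16 papillomas) and 4 controls, by CEL-Seq2, which sequences the 3′ ends of transcripts. The p16 papillomas came from K5-rtTA/tet-p16 mice, in which the keratin 5 promoter drives a doxycycline-dependent activator of a human p16 transgene, so that activation is limited to cells that use this promoter. The control papillomas came from tet-p16 mice, which carry the transgene without its activator. Mice of both genotypes received the carcinogen DMBA once (50 nmol, at 3 weeks of age), then doxycycline in the water from a week later together with repeated doses of the tumor promoter TPA, were followed for 23 weeks and were killed 10 days after the last TPA dose, at 27 weeks of age. Per the methods the animals were females of mixed background, C57Bl6 and 129sv for the tet-p16 line and FVB for the K5-rtTA line. The labels do not state that each papilloma came from a separate mouse, so p-values measure only the spread between these lesions. The transgene is human and its level was not analysed here. All 35 genes carry the authors' mark for expression in sorted keratinocytes.

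During mitosis, cyclin-dependent kinase 1 (CDK1) with its cyclins and the Polo and Aurora kinases drive assembly of the spindle. Kinetochores attach each chromosome to microtubules, and the spindle checkpoint holds back the anaphase-promoting complex until all are attached. Transcripts of these genes build up late in the cell cycle and are low in resting cells, and in the epidermis they come mainly from dividing basal keratinocytes. p16 inhibits CDK4 and CDK6 and so keeps Rb family proteins active. Many mitotic promoters hold a CHR element, read by the MuvB complex that works with the Rb relatives p107 and p130, together with CCAAT boxes that NF-Y binds.

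This promoter layout was common among the genes studied, and stretches from 7 of them are shown because the results below turn on these genes. RefSeq promoter windows (GRCm38.p6, 250 bases before to 50 after the gene start) were found for 31 of the 35 genes, all but Tpx2, Aurkb, Ccna2 and Kif20a. Each stretch reads 5′ to 3′ on the strand of its gene, and capitals mark CHR letters (TTTGAA or TTCGAA) and CCAAT letters on either strand. The stretch lies at chr10:69352913-69353012 for Cdk1, chr4:118437344-118437413 for Cdc20, chr2:172370571-172370640 for Aurka and chr13:100786487-100786596 for Ccnb1. It lies at chr11:99024190-99024349 for Top2a, chr7:135716470-135716579 for Mki67 and chr2:164769829-164769928 for Ube2c. The Ube2c stretch reads on the plus strand and the others on the minus strand.
Cdk1: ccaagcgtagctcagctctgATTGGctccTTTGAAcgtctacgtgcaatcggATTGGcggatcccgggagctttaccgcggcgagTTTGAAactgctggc
Cdc20: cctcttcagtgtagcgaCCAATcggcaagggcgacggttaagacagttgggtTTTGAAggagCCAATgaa
Aurka: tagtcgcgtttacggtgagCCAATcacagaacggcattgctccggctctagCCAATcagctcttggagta
Ccnb1: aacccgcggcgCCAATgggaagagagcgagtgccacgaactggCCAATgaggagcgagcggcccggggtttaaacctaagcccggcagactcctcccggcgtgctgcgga
Top2a: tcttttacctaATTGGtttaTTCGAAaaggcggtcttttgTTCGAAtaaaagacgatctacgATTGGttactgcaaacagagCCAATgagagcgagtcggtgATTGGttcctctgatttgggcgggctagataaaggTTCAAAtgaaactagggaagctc
Mki67: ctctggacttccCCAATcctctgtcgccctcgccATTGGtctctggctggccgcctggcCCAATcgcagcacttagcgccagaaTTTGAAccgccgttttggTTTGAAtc
Ube2c: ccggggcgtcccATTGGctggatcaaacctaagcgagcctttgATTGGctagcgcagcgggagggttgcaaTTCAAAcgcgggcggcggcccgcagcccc

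The Cdk1, Cdc20, Top2a, Mki67 and Ube2c stretches hold both kinds of letters, whereas the Aurka and Ccnb1 stretches hold CCAAT letters alone (the Aurka window has CHR letters after the gene start). TTCGAA reads the same on both strands, and CHR and CCAAT matches can share a base. CHR letters were present in the windows of 24 of 31 genes (77.4%), against 21.7% of all 27025 genes with a promoter window. CCAAT letters were present in 24 of 31 (77.4%, against 41.1%) and at least 2 of them in 17 of 31 (54.8%, against 13.3%). Both kinds stood in the same window in 21 of 31 genes (67.7%, against 8.61%). The E2F letters TTTGGCGC or TTTCCCGC, searched on both strands, were in the windows of 0 of the 31 genes, against 1.80% of all genes. Among the 8069 other tested genes with a window, 15.9% had CHR letters, 42.2% CCAAT letters and 16.3% at least 2 of the latter. Both kinds were in 6.66% of these other tested genes and E2F letters in 3.46%. Such matches describe letters and not bound sites.

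No mitosis or spindle gene passed the test between p16 and control papillomas. Values are normalized read counts, and a log2 change is the difference in log2(normalized read count + 1), p16 minus control. It was tested with limma over the 10466 genes whose mean reached 10 in the p16 or the control papillomas, which included 33 of the 35. By the threshold of a Benjamini-Hochberg adjusted p under 0.05, 0 of the 33 were lower and 0 were higher in p16 papillomas, against 2.96% and 2.66% of all genes tested. At an unadjusted p under 0.05, 1 was lower (Aurka) and 0 were higher, against 11.6% and 9.66% of all genes tested. The edgeR test called 0 members (5.19% of all genes). At its unadjusted p under 0.05 there were 0 members, against 10.8% of all genes tested that were lower (2182 of 10466 in either direction). DESeq2 called 0 members (7.53% of all genes). At its unadjusted p under 0.05, 1 member was lower and 0 were higher, against 9.38% of all genes tested that were lower (1896 in either direction). In none of the 35 genes were the p16 and control values apart without overlap, a pattern seen with p16 below in 10.4% and with p16 above in 9.25% of all genes tested. In whole papillomas, fewer cells of a type and less RNA per cell cannot be told apart.

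Most changes were small and negative. Of the 33 tested genes 28 (84.8%) had a negative log2 change, against 52.1% of all genes tested, and the median was -0.22, against -0.02. Changes ranged from -1.01 for Aurka to 0.42 for Cdca8, with standard errors of 0.196 to 0.543. The 95% interval lay above a 2-fold fall in 22 of the 33 genes, below a 2-fold rise in 32, and within 2-fold both ways in 21. A 2-fold fall therefore lay inside the interval of the other genes. The count and the median rested on single papillomas: without p16 papilloma 1, 18 of 34 tested genes were negative and the median was -0.03, whereas it was -0.44 without p16 papilloma 3 and -0.37 without control papilloma 3.

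**Figure D1:**
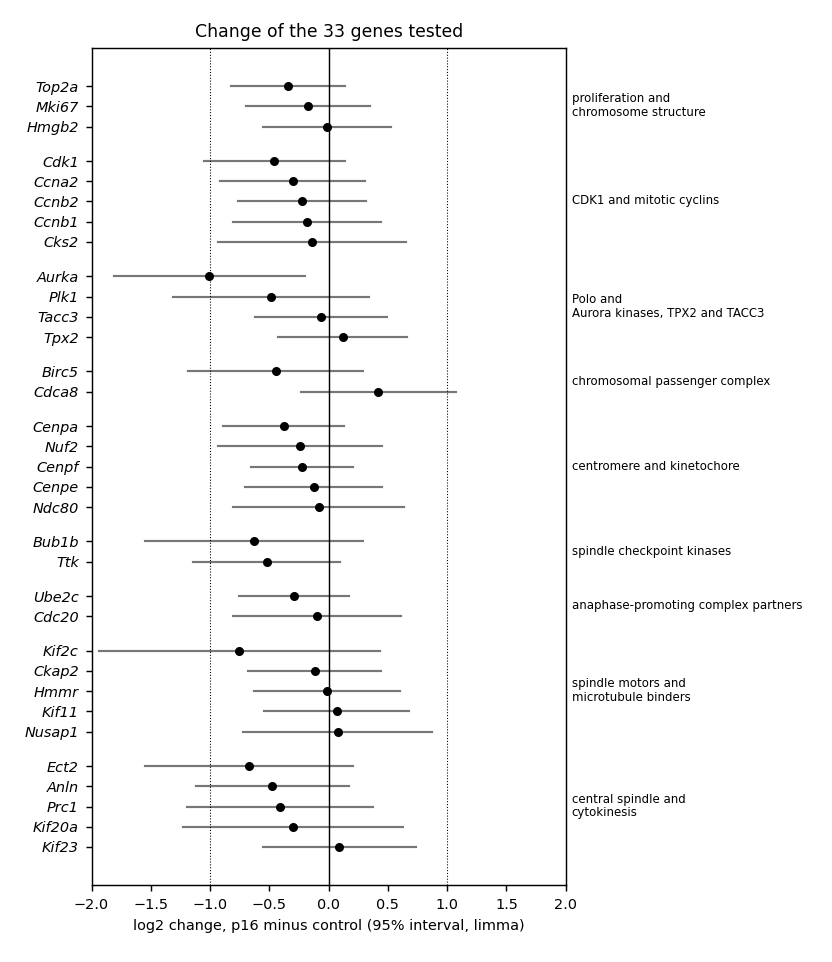
Log2 change (p16 minus control, x axis) of the 33 tested genes with its 95% limma interval, grouped by role; dotted lines mark 2-fold. Aurka at -1.01 lies lowest and its interval alone leaves out 0, and Cdca8 at 0.42 lies highest.

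The papillomas differed more within each group than the groups did. The 35 genes took 0.0855%, 0.117% and 0.148% of reads in p16 papillomas 1, 2 and 3, against 0.139%, 0.152%, 0.0986% and 0.149% in control papillomas 1, 2, 3 and 5. Wilson 95% intervals, which cover counting error only, were 0.0819% to 0.0893% in p16 papilloma 1 and 0.0954% to 0.102% in control papilloma 3. p16 papilloma 3 thus lay among the 3 higher controls, and the lowest control lay between p16 papillomas 1 and 2. The mean share was 0.117% ± 0.0315 in p16 papillomas and 0.135% ± 0.0247 in controls (SD, n = 3 and 4). On the log2 scale, the mean level of the 35 genes was 5.41, 5.76 and 6.22 in p16 papillomas, against 6.25, 6.20, 5.58 and 6.17 in controls. The spans within groups, 0.82 among p16 and 0.67 among control papillomas, exceeded the difference between the group means (-0.26).

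**Figure D2:**
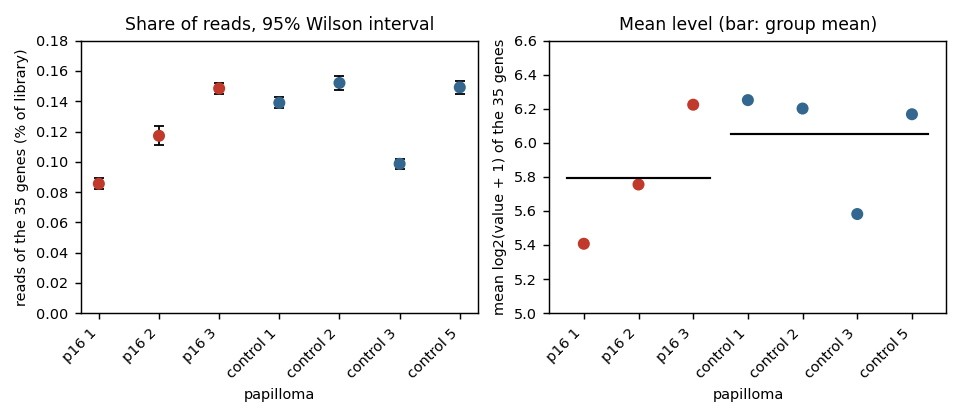
Left, reads of the 35 genes as a percentage of each library, with Wilson 95% intervals; right, their mean log2 level, with a bar at each group mean (p16 left, control right). p16 papilloma 3 (0.148%) lies with 3 of the controls, and control papilloma 3 (0.0986%) lies between p16 papillomas 1 and 2.

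The genes moved together from papilloma to papilloma. Of the 3 p16 papillomas, number 1 had the lowest value for 26 of the 35 genes and number 3 the highest for 28, against 32.2% and 33.7% of all genes tested. p16 papilloma 1 was below p16 papilloma 3 in 35 of 35 genes, with a median difference of -0.73, whereas 50.3% of all genes tested were lower. Among the controls, number 3 had the lowest value for 30 of the 35 genes, against 27.9% of all genes tested. It was below control papillomas 1, 2 and 5 in 34, 33 and 32 of the 35 genes. The median within-group SD of the 33 tested genes was 0.432 on the log2 scale. From each of them, the mean of the others among the 33 was then subtracted in each papilloma. The median SD dropped to 0.274, with a smaller SD in 30 of 33 genes. For all remaining genes tested, subtracting the mean of the 33 raised it to 0.480, against 0.328 before, and 16.3% had a smaller SD.

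Depth differed between papillomas as well. The median number of reads per gene of the 35 was 31, 21 and 101 in p16 papillomas 1, 2 and 3, against 90, 65, 45 and 80 in control papillomas 1, 2, 3 and 5. The counting SD at that depth was 0.144 to 0.315 in p16 and 0.152 to 0.215 in control papillomas on the log2 scale. The lowest levels were in p16 papilloma 1 and the fewest reads in p16 papilloma 2, where 12 of the 35 genes had under 10 reads. The part of depth in the order of the papillomas was not tested.

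**Figure D3:**
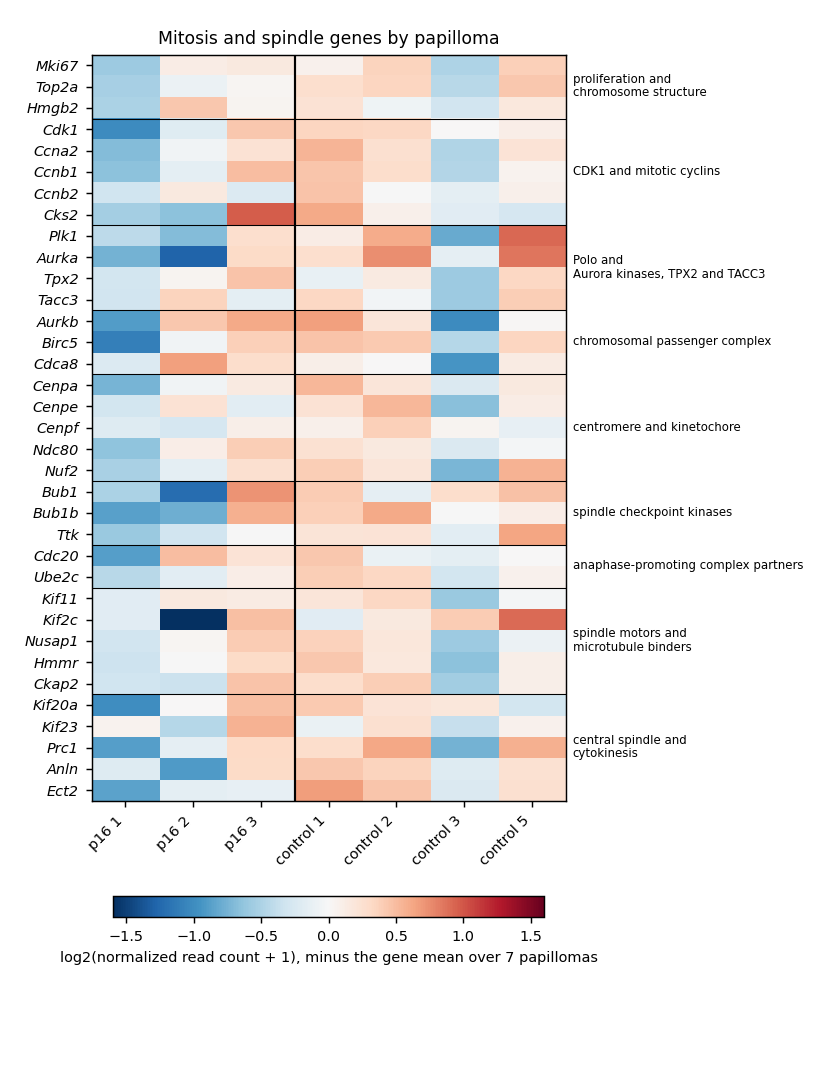
Log2(normalized read count + 1) of the 35 genes (vertical) in the 7 papillomas (horizontal, p16 left of control), minus the mean of each gene over the papillomas; blue is below and red above that mean. The columns of p16 papilloma 1 and control papilloma 3 are mostly blue, and p16 papilloma 3 was above p16 papilloma 1 for 35 of 35 genes.

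Mki67, which encodes the proliferation marker Ki-67, had 581, 944 and 964 normalized read counts in p16 papillomas, against 907, 1105, 613 and 1127 in controls. The groups overlapped, with p16 papilloma 1 and control papilloma 3 low. Its log2 change was -0.17 (95% interval -0.70 to 0.35, limma adjusted p = 0.723). Without p16 papilloma 1 the change was 0.06.

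Top2a, the topoisomerase that untangles sister chromatids, had 381, 518 and 561 in p16 papillomas, against 661, 698, 406 and 740 in controls. Here 3 controls were above every p16 papilloma, while control papilloma 3 fell between p16 papillomas 1 and 2. The log2 change was -0.35 (interval -0.83 to 0.13, limma adjusted p = 0.400), and it was -0.18 without p16 papilloma 1. Hmgb2, a chromatin protein that bends DNA, had 52.5, 101 and 77.2 in p16 papillomas, against 88.0, 71.3, 60.3 and 84.3 in controls, and its change was -0.02 ± 0.25 (SE).

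Each of the 5 genes for CDK1 and its partners was lower in p16 papillomas by its estimate (median change -0.22), and none passed. Cdk1, the kinase that starts mitosis, had 156, 275 and 425 in p16 papillomas, against 401, 397, 316 and 340 in controls. The controls lay close together and the p16 papillomas spanned them, with number 1 and number 2 below every control and number 3 above every control. The group means were 285 ± 135 and 364 ± 42.4 (SD, n = 3 and 4), and the log2 change was -0.46 (interval -1.05 to 0.14, limma adjusted p = 0.363). It was -0.08 without p16 papilloma 1 and -0.80 without p16 papilloma 3 (limma adjusted p = 0.869 and 0.0792). Ccnb1, cyclin B1, had 71.3, 101 and 160 in p16 papillomas, against 154, 138, 81.3 and 118 in controls. p16 papilloma 3 was the highest of all 7 lesions and p16 papilloma 1 the lowest. The log2 change was -0.18 (interval -0.81 to 0.44), and it was 0.09 without p16 papilloma 1.

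Cks2, a small subunit that binds CDK1, had 65.9, 60.8 and 190 in p16 papillomas, against 148, 103, 84.9 and 80.1 in controls. Its change of -0.14 was the smallest in size of the 5 and depended on p16 papilloma 3. It was -0.66 without that lesion, 0.15 without p16 papilloma 2, and 0.10 with edgeR. The cyclin genes Ccna2 and Ccnb2 had changes of -0.30 and -0.22.

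Aurka, which encodes the Aurora A kinase of centrosomes and spindle poles, had the change of largest size and the smallest p of the 33 genes. It had 29.6, 20.3 and 63.2 in p16 papillomas, against 61.5, 85.8, 45.7 and 92.7 in controls. p16 papillomas 1 and 2 (22 and 7 reads) lay below every control, and p16 papilloma 3 lay between control papillomas 1 and 2. The log2 change was -1.01 ± 0.37 (SE, interval -1.81 to -0.20), which did not pass after adjustment (limma unadjusted p = 0.0186, adjusted p = 0.139). The size rested on single lesions. Without p16 papilloma 3 it was -1.45 and passed (limma adjusted p = 0.0341), whereas without p16 papilloma 2 it was -0.65 (limma adjusted p = 0.399). On the recovered reads it was -0.79 with edgeR (adjusted p = 0.249).

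Other regulators of the spindle poles did not pass either. Tpx2, the activator of Aurora A on spindle microtubules, had 95.5, 122 and 161 in p16 papillomas, against 108, 130, 78.5 and 149 in controls, and p16 papilloma 3 was the highest lesion. Its log2 change was 0.12 (interval -0.42 to 0.66). Tacc3, a spindle protein that Aurora A phosphorylates, had a change of -0.06, and Plk1, the Polo kinase, one of -0.48 with an interval of -1.31 to 0.34. The differences between Aurka and these genes were not tested.

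In the chromosomal passenger complex, which corrects faulty attachments, the 2 tested genes had changes of opposite sign and neither passed. Cdca8, borealin, had 67.3, 124 and 95.6 in p16 papillomas, against 83.7, 78.5, 40.2 and 86.4 in controls. Both p16 papillomas 2 and 3 lay above every control, and p16 papilloma 1 lay between control papillomas 3 and 2. The log2 change was 0.42 (interval -0.23 to 1.07, limma adjusted p = 0.452). With each papilloma left out it ran from 0.16 without control papilloma 3 to 0.65 without p16 papilloma 1 (0.21 without p16 papilloma 2). With the mean level of the muscle and adipocyte markers as a covariate it was -0.31. Birc5, survivin, had 34.98, 72.4 and 98.5 in p16 papillomas, against 104, 101, 54.8 and 95.9 in controls, with a change of -0.45 (interval -1.19 to 0.29). That change was -0.03 without p16 papilloma 1 and -0.77 without p16 papilloma 3. Aurkb, the Aurora B kinase itself, was below the filter, at 4.04, 11.6 and 13.2 in p16 papillomas, against 13.7, 9.66, 3.65 and 8.43 in controls.

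**Figure D4:**
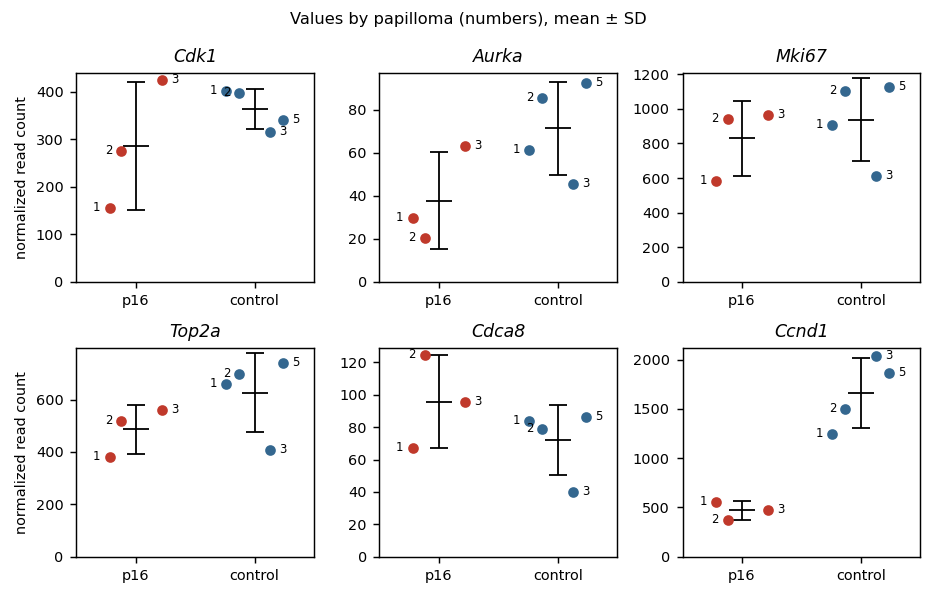
Normalized read counts (y axis, from 0) of 5 mitosis genes and Ccnd1 in each papilloma (point, with its number), with the mean and SD of the p16 (left) and control (right) groups. The groups overlap for the mitosis genes, and for Ccnd1 the p16 papillomas (371 to 558) lie below the controls (1243 to 2032).

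The estimates of the 5 centromere and kinetochore genes were also below 0 (median change -0.22), and none passed. Cenpa, the histone H3 variant of centromeres, had 161, 261 and 298 in p16 papillomas, against 391, 308, 229 and 301 in controls. Control papilloma 3 lay between p16 papillomas 1 and 2, and the other controls were above all p16 papillomas. The log2 change was -0.38 (interval -0.89 to 0.13, limma adjusted p = 0.384), and it was -0.12 without p16 papilloma 1. Ndc80, of the complex that grips microtubules, had 13.5, 23.2 and 28.7 in p16 papillomas, against 25.6, 24.2, 18.3 and 21.1 in controls, and a change of -0.08 (interval -0.80 to 0.64). Its partner Nuf2 had a change of -0.24, the kinetochore motor Cenpe -0.13 and Cenpf, a large kinetochore protein, -0.22.

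The 2 tested genes of the spindle checkpoint had the lowest median of the role groups, -0.58, but few reads. In p16 papillomas 1 and 2, Bub1b had 6 and 3 reads and Ttk 14 and 8. With edgeR the change of Bub1b was -0.37. Ttk, the checkpoint kinase MPS1, had 18.8, 23.2 and 28.7 in p16 papillomas, against 33.3, 33.8, 25.6 and 45.3 in controls. Only p16 papilloma 3 and control papilloma 3 kept the groups from separating, and the log2 change was -0.52 (interval -1.15 to 0.10, limma adjusted p = 0.316). Bub1b, which encodes BUBR1, had 8.07, 8.68 and 23.5 in p16 papillomas, against 20.5, 24.2, 15.5 and 16.9 in controls, a change of -0.63 (interval -1.55 to 0.29, limma adjusted p = 0.426) that was -1.09 without p16 papilloma 3 and -0.38 without p16 papilloma 1. p16 papillomas 1 and 2 were below every control and p16 papilloma 3 was above all but control papilloma 2. Bub1, the other BUB kinase, was under the filter at 5.38, 2.89 and 13.97 in p16 papillomas, against 11.1, 7.25, 10.0 and 11.6 in controls.

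For the partners of the anaphase-promoting complex the changes were small. Cdc20, its activator, had 22.9, 60.8 and 50.0 in p16 papillomas, against 58.1, 39.9, 38.3 and 43.2 in controls. p16 papilloma 1 was the lowest lesion and p16 papilloma 2 the highest, and the log2 change was -0.10 (interval -0.81 to 0.61). Without p16 papilloma 1 it was 0.31. Ube2c, the ubiquitin-conjugating enzyme of the complex, had 88.8, 107 and 130 in p16 papillomas, against 159, 152, 98.6 and 126 in controls, with a change of -0.29 (interval -0.76 to 0.17).

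Spindle motors and microtubule binders had a median change of -0.01. Kif2c, a kinesin that shortens microtubules, had 9.42, 2.89 and 15.4 in p16 papillomas, against 9.39, 12.1, 14.6 and 21.1 in controls. The value of p16 papilloma 2 was worth 1 read, and the change of -0.75 had the widest interval of the 33 genes (-1.94 to 0.44). Without that lesion the change was -0.17, and with the muscle and adipocyte covariate it was 0.11. Nusap1, which bundles spindle microtubules, had 13.5, 17.4 and 22.8 in p16 papillomas, against 22.2, 19.3, 10.96 and 15.8 in controls, with a change of 0.08 (interval -0.72 to 0.87). The bipolar motor Kif11 was at 0.07, Hmmr, a spindle pole protein, at -0.01, and the microtubule-associated Ckap2 at -0.12.

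The central spindle and cytokinesis genes had a median of -0.41, and 4 of 5 were negative. Ect2, the exchange factor that activates RhoA at the division plane, had 6.73, 11.6 and 11.8 in p16 papillomas, against 21.4, 18.1, 10.96 and 15.8 in controls. p16 papillomas 2 and 3 lay just above control papilloma 3 and below the other controls. The log2 change was -0.67 (interval -1.55 to 0.21, limma adjusted p = 0.366). Anln, the contractile ring scaffold anillin, had 43.0, 26.1 and 61.7 in p16 papillomas, against 67.5, 64.0, 42.9 and 59.0 in controls, a change of -0.47 (interval -1.12 to 0.17, limma adjusted p = 0.388) that was -0.15 without p16 papilloma 2.

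Kif23, the motor of the centralspindlin complex that works with Ect2, had a positive estimate, and its difference from Ect2 was not tested. It had 33.6, 23.2 and 47.8 in p16 papillomas, against 29.9, 38.7, 24.7 and 33.7 in controls, and the change was 0.09 (interval -0.56 to 0.74). Prc1, which bundles the central spindle, had a change of -0.41 and the kinesin Kif20a one of -0.30.

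Set against promoter layout, the median log2 change was -0.26 for the 20 tested genes with both CHR and CCAAT letters (range -1.01 to 0.42) and -0.16 for the 10 without both (range -0.75 to 0.08). The ranges overlapped, and the difference between the medians was not tested.

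The order of the papillomas was checked with each left out. Without p16 papilloma 3, 6 of 33 genes were lower and 0 higher at an unadjusted p under 0.05 (18.2%), against 12.1% of all genes tested that were lower. In that fit 2248 of all 10503 genes were under 0.05 in either direction. Without control papilloma 3, 5 of 34 genes were lower and 0 higher (14.7%), against 10.8% of all genes tested that were lower, with 2067 of 10394 under 0.05 in either direction. Without control papilloma 3, 33 of the 34 changes were negative. The count and the median without p16 papilloma 1 are given above. With that lesion removed, 0 of the 34 genes had an unadjusted p under 0.05, against 10.5% of all genes tested that were lower (1982 of 10505 in either direction).

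**Figure D5:**
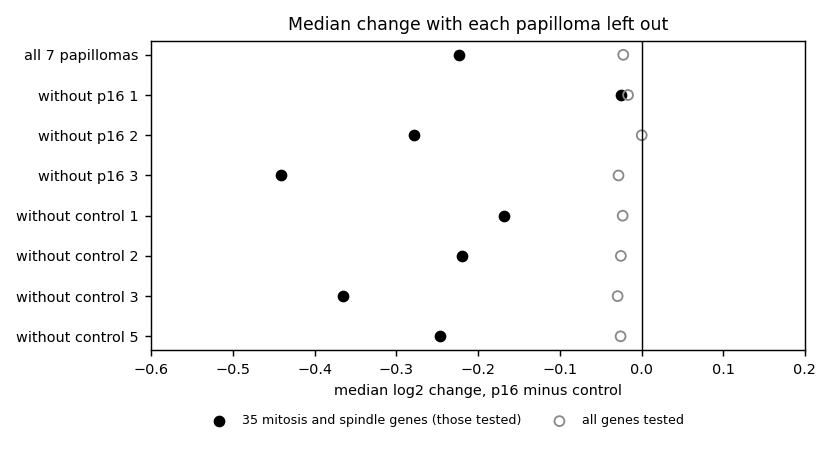
Median log2 change (p16 minus control, x axis) of the tested genes among the 35 (filled) and of all genes tested (open), with all 7 papillomas and with each left out. The filled points run from -0.44 without p16 papilloma 3 to -0.03 without p16 papilloma 1, while the open points stay near 0.

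Further genes of mitosis did not pass either. Of 62 tested genes of a wider mitotic list, 0 were called higher or lower by limma, with a median of -0.18, and 6 were lower and 3 higher at an unadjusted p under 0.05. For this and the lists below, the shares over all genes tested are 11.6% lower and 9.66% higher at that threshold. Genes called by limma made up 2.96% lower and 2.66% higher. Foxm1, a transcription factor for mitotic genes, had 4.04, 28.9 and 8.09 in p16 papillomas, against 6.83, 16.9, 14.6 and 11.6 in controls, with a log2 change of -0.21 (interval -1.53 to 1.10). Mybl2, which encodes the B-MYB partner of MuvB, had no overlap between groups, with 10.8, 14.5 and 16.2 in p16 papillomas, against 20.5, 35.03, 20.1 and 23.2 in controls, but did not pass (change -0.78, limma adjusted p = 0.204). Groups apart with p16 below were seen in 10.4% of all genes tested. Of 18 condensin and cohesin genes, which shape and hold chromosomes, 0 passed, with a median of -0.25 and 5 lower and 1 higher at an unadjusted p under 0.05.

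The anaphase-promoting complex subunits had a median of -0.05, and 1 of 15 passed. Anapc13, a small subunit of the complex, was higher in p16 papillomas, with 229, 336 and 298, against 164, 128, 118 and 143 in controls, without overlap. Its log2 change was 1.04 ± 0.19 (SE, limma adjusted p = 0.00728). With the muscle and adipocyte covariate it was 0.65 and did not pass (limma adjusted p = 0.318). With the papilloma number as a block it was 1.07 and did not pass either (limma adjusted p = 0.0617).

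Upstream of mitosis, 2 of 24 tested genes among the G1 cyclins and the Rb, E2F and MuvB genes fell and 0 rose, with a median of -0.23. Of all genes tested 2.96% fell and 2.66% rose. At an unadjusted p under 0.05, 8 of the 24 were lower and 1 higher, against 11.6% and 9.66% of all genes tested. Ccnd1, the cyclin D1 partner of CDK4 and CDK6, had 558, 371 and 479 in p16 papillomas, against 1243, 1499, 2032 and 1868 in controls. All p16 papillomas were below all controls, and the log2 change was -1.82 ± 0.20 (SE, limma adjusted p = 0.000515). With the muscle and adipocyte covariate it was -1.30 (limma adjusted p = 0.0529). Ccnd2, cyclin D2, had 523, 208 and 222 in p16 papillomas, against 533, 907, 1623 and 810 in controls. p16 papilloma 1 lay just below control papilloma 1, and the change was -1.62 (limma adjusted p = 0.0272). With the muscle and adipocyte covariate it was -0.50 (limma adjusted p = 0.657). It did not pass without p16 papilloma 2 or 3 or without control papilloma 2 or 5 (limma adjusted p = 0.115, 0.0848, 0.0651 and 0.0589). With the papilloma number as a block the change of Ccnd2 was -1.67 and did not pass (limma adjusted p = 0.112).

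None of the 6 tested CDK inhibitor genes passed limma in either direction, with a median of 0.12, and at an unadjusted p under 0.05 there was 1 lower and 0 higher. The lower one was the mouse gene Cdkn2a, whose groups overlapped (change -1.21, interval -2.28 to -0.15, limma adjusted p = 0.175). edgeR called 3 and DESeq2 4 genes over all these further lists. Cdkn1a, the p53 target p21, had 2397, 2478 and 2491 in p16 papillomas, against 2835, 2815, 1857 and 2265 in controls. The controls spanned the p16 papillomas, and the change was 0.03 (interval -0.34 to 0.40).

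Markers of the cells that could hold these transcripts differed between lesions. The 13 basal keratinocyte markers summed to 34782 to 48082 normalized read counts in p16 papillomas, against 45841 to 71793 in controls, with none at 0, and 3 of the 13 fell. By estimate 10 were negative, while Krt15, Trp63 and Dst had changes of 1.01, 0.33 and 0.06 that did not pass. Krt14 and Krt5 made up most of the sum in each papilloma. Relative to that sum, the 35 genes amounted to 7.96%, 8.17% and 12.4% in p16 papillomas, against 10.7%, 6.97%, 5.57% and 8.96% in controls. By this ratio, which was added after the values were seen, the group means were 9.52% ± 2.52 in p16 and 8.04% ± 2.24 in controls (SD), the other way round from the share of reads. The 11 suprabasal markers summed to 97373 to 141577 in p16 papillomas, against 58566 to 70565 in controls, and 6 of 11 rose.

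Muscle and fat markers differed too. The 15 skeletal muscle markers summed to 605, 11280 and 2957 in p16 papillomas, against 551 to 1000 in controls, so that p16 papilloma 2 stood apart, and 0 of 15 passed limma, with 11 higher at an unadjusted p under 0.05. Of the 12 adipocyte markers 6 were tested and 4 rose (Car3, Cfd, Adipoq and Lpl), while Fabp4 and Pnpla2 had changes of -1.54 and -0.23 that did not pass. Their sum, of which Fabp4 made up most, was 2129 to 2639 in p16 papillomas, against 1918 to 11357 in controls. Among markers below the filter, Plin1 and Lep were at 0 in all 4 controls. With the mean log2 level of both lists pooled as a covariate, the median change of the 33 genes was -0.71 (median SE 0.397). Of these genes 31 were negative and 0 passed, while over all genes 45 passed. As 0 of the 15 muscle markers had a negative change, the covariate partly follows the groups. The fit therefore cannot separate its part from that of p16. In that fit 10 of the 33 genes were lower and 0 higher at an unadjusted p under 0.05 (30.3%), against 6.59% of all genes tested that were lower (1284 of 10466 in either direction). The part of the other cell types in these values was not tested.

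Other lists were read as sums of normalized read counts. Fibroblast markers summed to 4345 to 20587 in p16 papillomas, against 4904 to 14270 in controls, and 2 of 11 rose. Neutrophil markers summed to 10808 to 21218 in p16 papillomas, against 1917 to 4881 in controls, carried by S100a8 and S100a9, which keratinocytes also express and which rose. Of the 4 tested, Cxcr2 and Csf3r had changes of 0.40 and 0.18 that did not pass. Below the filter, Retnlg was lower, at 0 to 1.35 in p16 papillomas, against 2.11 to 24.2 in controls, while Mpo was at 0 in all 4 controls. Erythroid genes summed to 211 to 864 in p16 papillomas, against 1946 to 13915 in controls, and 5 of 5 fell. Macrophage and dendritic cell markers summed to 1051 to 2133 in p16 papillomas, against 1228 to 1576 in controls, with 0 passing limma and 1 lower at an unadjusted p under 0.05. Endothelial markers summed to 151 to 178 in p16 papillomas, against 138 to 227 in controls, with 0 passing and 0 at an unadjusted p under 0.05. Mast cell markers summed to 55.0 to 191 in p16 papillomas, against 28.4 to 54.4 in controls, with 0 passing limma and 3 higher at an unadjusted p under 0.05. T cell markers, none of which reached the filter, summed to 8.68 to 32.3 in p16 papillomas, against 6.39 to 19.0 in controls. The 1 B cell marker found had 6.73 to 17.4 in p16 papillomas, against 1.05 to 6.04 in controls, and did not pass.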

How the data were processed

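RNA of whole papillomas was sequenced by CEL-Seq2 in 3 p16 and 4 control lesions, grouped by their titles. Per the methods and the submitters' processing notes, the authors trimmed reads with Cutadapt, aligned them with TopHat2 (build GRCm38), used HTSeq for counting and DESeq2 for scaling and testing. Versions, and whether molecular identifiers were collapsed, are not given in the sources used here. The signal values deposited per papilloma are normalized read counts, each count over the size factor of its library. The deposited table also holds the authors' log2 fold changes, p-values and a test score (Wald), none of which were used.

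Dividing by the value of a single read gave whole numbers throughout (100% of values, tolerance 0.001), so reads were recovered. Libraries held 1158035 to 4365391 reads, of which genes with the keratinocyte mark took 90.1% to 92.2%. No correction for amplification was made here, and intervals built on reads therefore hold counting error alone.

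The 10466 genes whose mean reached 10 in p16 or control papillomas were tested, two-sided, with limma 3.58.1 (R 4.3.3, intensity trend) on log2(value + 1). p-values were adjusted over all genes tested by the Benjamini-Hochberg method, with a threshold of 0.05. limma called 588 genes. On the recovered reads edgeR 4.0.16 (quasi-likelihood) called 543 and DESeq2 1.42.0 called 786. The added 1 draws changes of low genes toward 0 (Bub1b -0.63, against -0.66 with 0.5 and -0.51 with 4 added). Set against edgeR, differences ran both ways, with Bub1b at -0.37 and Ccnb2 at -0.27 (limma -0.63 and -0.22). The fitting steps were tested on simulated data with known changes. There limma called 37.4% of the 2-fold and 80% of the 4-fold changes, and 10 of its 127 calls were false. Many changes of 2-fold would therefore be missed with these lesions. Alternatives were other pseudocounts, filters and scalings, limma-voom, a replicate block, genes with the keratinocyte mark only, and leaving out each papilloma. A further alternative had the mean log2 level of the pooled muscle and adipocyte markers as a covariate.

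The 35 genes, the further lists and the tests were chosen with earlier results of these data known. Values by papilloma are given for Mki67, Top2a, Cdk1, Ccnb1 and Cdc20, for the 8 genes with the smallest p, for the largest and smallest change of each role group, for genes of the further lists that passed, and for Ccnd1, Cdkn1a, Foxm1 and Mybl2. Aurkb and Bub1 were added because they were not tested. Promoter windows are from RefSeq. Of the other cell types, fibroblast, endothelial, macrophage, T cell, B cell, neutrophil, mast cell and erythroid markers were summed as well.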

Additional observations from a re-analysis of the deposited data

Results flagged for a closer look

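In the control group, control papilloma 3 stood apart from the other 3 lesions in the mean log2 level of the 35 genes, at 5.58 against 6.17 to 6.25, a gap of 0.876 of the whole range. The same lesion stood apart for Birc5 (54.8 against 95.9 to 104 normalized read counts, a gap of 0.832 of the range) and for Cdca8 (40.2 against 78.5 to 86.4, a gap of 0.829 of the range). Each exceeded Dixon's limit for 4 samples. In all, 44 sets of control values were checked and 3 passed, and chance passes about 1 in 20. The mean includes both genes, so the 3 are not independent.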

How the results depend on the processing

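Other pseudocounts, scalings, filters and tests kept 0 of the 35 genes called, and with each papilloma left out the number called was 0 to 1 (Aurka, without p16 papilloma 3). With a papilloma left out, 18 to 33 genes were negative. Deviations from the group mean had correlations of -0.092, -0.0058 and -0.052 between same-numbered papillomas. Pairs with different numbers ran from -0.068 to 0.11. With so few lesions centred on their group means, these values cannot decide whether same-numbered lesions share an experiment or a litter. A replicate block, in which control papilloma 5 has no partner, gave 0 genes of the 35 called, 25 negative, a median of -0.25, 270 of all genes called and 1 gene of the further cell cycle lists. The muscle and adipocyte covariate gave a median of -0.71, 45 of all genes and 0 of the further lists, and a filter of 50 gave 5 of the further lists. With a papilloma left out, 267 to 548 of all genes were called (382 without p16 papilloma 1, 267 without p16 papilloma 2, and 351 without control papilloma 2 or 5), and 2 to 5 of the further lists, 5 of them without control papilloma 3.

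Signs turned for the genes below, most of them with small changes but also for Kif2c and Cdca8. Cks2 was at 0.10 with edgeR, 0.064 with DESeq2 and 0.055 with voom, and Hmmr at 0.043 with voom. Under the block Cdkn1a was at -0.00068, Hmgb2 at 0.040, Hmmr at 0.013 and Tacc3 at 0.061. With keratinocyte-marked genes alone Hmgb2 was at 0.014 and Hmmr at 0.016. Under the covariate Cdca8 was at -0.31, Cdkn1a at -0.19, Kif11 at -0.39, Kif2c at 0.11, Nusap1 at -0.43 and Tpx2 at -0.25. With a papilloma left out the ranges that crossed 0 were -0.49 to 0.093 for Ccnb1, -0.38 to 0.31 for Cdc20, -0.10 to 0.11 for Cdkn1a, -0.37 to 0.032 for Cenpe, -0.38 to 0.017 for Ckap2, -0.66 to 0.15 for Cks2, -0.93 to 0.36 for Foxm1, -0.24 to 0.23 for Hmgb2, -0.24 to 0.14 for Hmmr, -0.12 to 0.18 for Kif11, -0.63 to 0.11 for Kif20a, -0.16 to 0.35 for Kif23, -0.37 to 0.064 for Mki67, -0.31 to 0.21 for Ndc80, -0.11 to 0.25 for Nusap1, -0.26 to 0.072 for Tacc3 and -0.073 to 0.30 for Tpx2. The cause was not tested. At a median of 21 to 101 reads per gene the counting SD was 0.144 to 0.315 on the log2 scale, below the median within-group SD of 0.432.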

Other observations

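Among the further mitotic and chromosome genes, some had values that differed between groups without passing the test, and they were chosen here after their values were seen. Bub3, a spindle checkpoint protein, had 99.5, 133 and 172 normalized read counts in p16 papillomas, against 207, 280, 183 and 270 in controls, with a log2 change of -0.81 (limma adjusted p = 0.0567). Smc2, a core subunit of condensin, had 68.6, 92.6 and 114 in p16 papillomas, against 160, 162, 123 and 165 in controls, with a change of -0.75 (limma adjusted p = 0.0585). For both genes all p16 papillomas lay below all controls, a pattern seen in 10.4% of all genes tested. Dlgap5, a spindle assembly protein, lay the other way round, with 33.6, 46.3 and 31.6 in p16 papillomas, against 27.3, 18.1, 23.7 and 16.9 in controls, a change of 0.77 (limma adjusted p = 0.150).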
